A study of Mus musculus with 4 samples.

Results

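The genes described here are 10 transcription factors and repressors of the circadian system: the PAR bZIP factors Hlf, Dbp and Tef, the nuclear receptors Nr1d1 and Nr1d2, the Period genes Per1, Per2 and Per3, and the partners Arntl and Clock. They were taken by name from a deposited table of 56953 genes. The set was chosen by the measured fall of Hlf in these same libraries, with its functional relatives added by name, so their values in this comparison are a description and carry no independent test. Dorsal skin came from wild type C57BL/6J mice treated topically for 3 days with NEDD8i at 10 µM, a compound known here by that label alone, or with DMSO. Each group had 2 libraries (replicates 1 and 2), and the sources used here do not say whether the replicates were separate mice, so the p-values here reflect variation between these libraries that could be technical. For neither group do the sources used here give the time of day at which skin was taken, the sex or the age.

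CLOCK and ARNTL (also called BMAL1) pair to bind E-box sequences and switch on the Period, Cryptochrome, Nr1d and Dbp genes, whose proteins then feed back. PER and CRY proteins block the CLOCK and ARNTL pair, and the REV-ERB proteins encoded by Nr1d1 and Nr1d2 repress Arntl through a sequence called the RORE. The PAR bZIP factors, named for a region rich in proline and acidic residues, bind D-box sequences and drive rhythmic output genes, and the repressor NFIL3 binds the same sites. In a normal cycle Dbp and Nr1d1 are high at a similar phase and Arntl is high at the opposite phase. The clock runs in keratinocytes, hair follicles and dermal cells of the skin. PER proteins are degraded through cullin-RING ubiquitin ligases with the substrate receptors BTRC and FBXW11, and such ligases are switched on by attachment of NEDD8 to the cullin.

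Library totals lay between 5639791 and 8856572 reads, of which 52.6% to 61.7% fell on 3 ribosomal RNA genes. The libraries were made with a kit that reads transcript ends. Values are given as counts and as CPM, which are counts scaled to library size with TMM factors. Keratinocyte transcripts were abundant in all 4 libraries (Krt14, a basal keratin, at 7279 to 20604 counts), whereas 6 endothelial markers together had 2 to 24 counts and Cdh5 had 0 in every library, and the adipocyte marker Adipoq had 0, 0, 2 and 0. Full-thickness skin is the labelled tissue, while the extraction text speaks of cells, and vessel markers were all but undetected. Fabp4, which fat and some other cells express, had 493, 1, 43 and 25 counts. Hair shaft and inner root sheath markers summed to 6834 CPM in DMSO replicate 1 against 19.0 CPM in DMSO replicate 2 and 15.8 and 428 CPM after NEDD8i, so DMSO replicate 1 stands apart and values without it are given below. In bulk tissue, fewer cells of a type and less RNA per cell cannot be told apart.

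To show which clock sequences lie near the starts of these genes, RefSeq promoter windows (GRCm38.p6, 250 bases before to 50 after an annotated start, 300 in all) were searched on both strands. Windows were found for 9 of the 10 genes, 14 windows in all, and Per2 had none. The motifs were the E-box CACGTG, the related CACGTT, the D-box spelled TTATGTAA, TTACGTAA or TTATGCAA, and the RORE core spelled TAGGTCA or TGGGTCA. No matches overlapped each other. The stretches that held a match are printed 5′ to 3′ on the gene's strand with the match in capitals, and the Hlf stretch just before its start, in which no motif was matched, is printed beside them because Hlf had the largest difference.
Hlf, no match, chr11:90390918-90391017: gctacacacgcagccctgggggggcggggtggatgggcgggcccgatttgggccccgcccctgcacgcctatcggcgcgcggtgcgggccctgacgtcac
Tef, upstream start, E-box, chr15:81802526-81802571: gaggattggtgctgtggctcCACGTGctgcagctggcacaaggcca
Tef, downstream start, E-box, chr15:81811256-81811301: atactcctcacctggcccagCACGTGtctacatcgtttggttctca
Per1, E-box then D-box, chr11:69098763-69098948: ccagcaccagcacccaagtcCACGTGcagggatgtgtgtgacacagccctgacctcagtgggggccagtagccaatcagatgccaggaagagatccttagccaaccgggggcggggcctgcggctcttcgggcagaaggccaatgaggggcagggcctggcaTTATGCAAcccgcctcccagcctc
Per3, D-box at 2 places, chr4:151044796-151044890: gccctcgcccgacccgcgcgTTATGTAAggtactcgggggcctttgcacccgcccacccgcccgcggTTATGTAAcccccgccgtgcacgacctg
Nr1d1, CACGTT on the other strand, chr11:98775380-98775425: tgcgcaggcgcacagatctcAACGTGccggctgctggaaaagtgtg
Arntl, RORE core after the start, chr7:113207530-113207558: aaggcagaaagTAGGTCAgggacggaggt
The Per1 E-box began 166 bases before the start and its D-box 24 bases before it. Both Per3 D-boxes, at 205 and 158 bases before the start, had the same 8 letters. An E-box was held by 7.15% of all 32851 windows, CACGTT by 4.68%, a D-box by 1.78% and a RORE core by 6.45%. A match is a description of letters, not a measured binding site, and windows of Hlf, Dbp, Nr1d2 and Clock held none of the motifs in these 300 bases.

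The comparison of NEDD8i with DMSO addresses how the skin transcriptome responds to the topical agent. Of the 10 genes, all 10 passed the filter on low counts, 6 had a negative and 4 a positive log2 fold change, and the median was -0.33 against -0.0031 over all 11388 genes tested. All 3 PAR bZIP genes were lower after NEDD8i, most of all Hlf and Dbp. Per3 was also lower, by a narrow gap. Nr1d1 and Arntl were higher, and Nr1d2, Per1, Per2 and Clock overlapped between the groups. By edgeR's quasi-likelihood test 1 of the 10, Hlf, passed an adjusted p of 0.05, where 0.782% of all genes tested passed and 0.114% passed as lower, and the other 9 did not pass. In log2 CPM the groups did not overlap for 6 of the 10 genes, where 47.8% of all genes tested did not overlap. As the genes were chosen with this contrast in view, nothing is read from these counts.

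**Figure D1:**
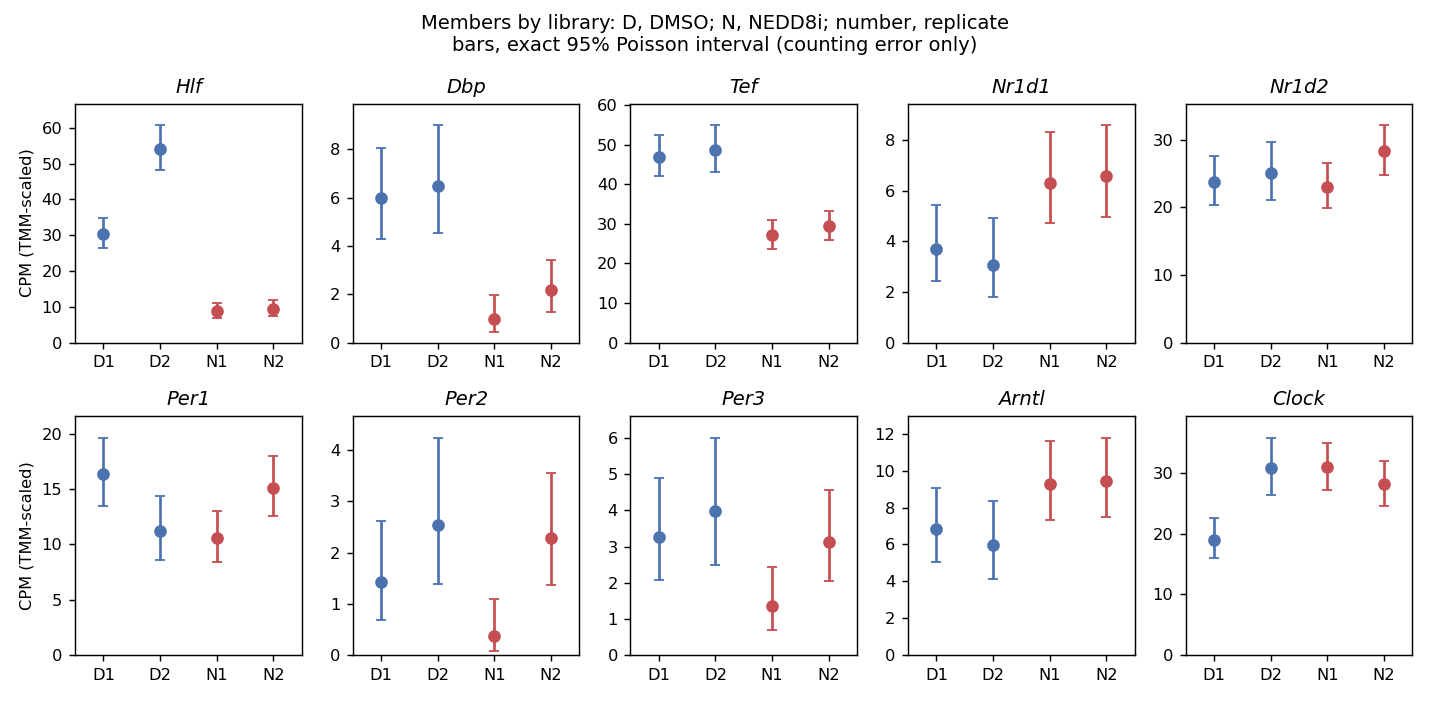
TMM-scaled CPM of each of the 10 genes (vertical axis, linear, a separate scale per gene) in the 4 libraries, with bars for the exact 95% Poisson interval of the count, which covers counting error alone. Hlf, Dbp and Tef lie lower in both NEDD8i libraries than in both DMSO libraries, Per3 lies narrowly lower, Nr1d1 and Arntl lie higher, and Per1, Per2, Nr1d2 and Clock overlap.

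Hlf (ENSMUSG00000003949.17, chromosome 11, 90227362 to 90281721, minus strand, in the table's coordinates, taken to be GRCm39) encodes hepatic leukemia factor, a PAR bZIP activator that follows the clock in many tissues. It was read 214 and 300 times in the DMSO libraries, replicate 1 given before replicate 2 here and below, against 71 and 79 times in the NEDD8i libraries. That is 30.4 and 54.2 CPM against 8.79 and 9.46 CPM. Both NEDD8i libraries lay well under both DMSO libraries, and the DMSO libraries differed from each other far more than the NEDD8i libraries did. The means were 42.3 ± 16.8 CPM in DMSO and 9.13 ± 0.474 CPM after NEDD8i (SD, n = 2 each), and the log2 fold change was -2.21 (SE 0.37), a 4.63-fold lower level (edgeR adjusted p = 0.0372). The call was lost without NEDD8i replicate 1 (adjusted p = 0.218), without NEDD8i replicate 2 (adjusted p = 0.132), with limma-voom (adjusted p = 0.0891) and in edgeR without its robust option (adjusted p = 0.0702). The log2 fold change was -2.58 without DMSO replicate 1, the library rich in hair RNA, and -1.72 without DMSO replicate 2.

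Dbp (ENSMUSG00000059824.13, chromosome 7, 45354512 to 45359627, plus strand) encodes D-site albumin promoter binding protein, a direct target of CLOCK and ARNTL. It had 42 and 36 counts in the DMSO libraries against 8 and 18 in the NEDD8i libraries, or 5.97 and 6.50 CPM against 0.991 and 2.16 CPM. The groups did not overlap, and the 95% counting interval of the higher NEDD8i library, 1.28 to 3.41 CPM, lay under that of the lower DMSO library, 4.30 to 8.07 CPM. The means were 6.23 ± 0.375 and 1.57 ± 0.824 CPM (SD, n = 2 each), with a log2 fold change of -1.97 (SE 0.57). It passed over all genes only without DMSO replicate 1 (adjusted p = 0.0434) among the settings run, a fit that called 4.81% of all genes as lower, and stood at -1.51 without NEDD8i replicate 1 and -2.65 without NEDD8i replicate 2. Its exons share 539 bases with Sphk2, a sphingosine kinase gene on the opposite strand that had 151, 161, 157 and 232 counts in the same library order. The sources used here do not say whether counting used the strand.

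Tef (ENSMUSG00000022389.16, chromosome 15, 81686622 to 81711064, plus strand) encodes thyrotroph embryonic factor, whose printed promoters both hold an E-box. Its counts were 331 and 270 in the DMSO libraries against 219 and 246 in the NEDD8i libraries, or 47.0 and 48.8 CPM against 27.1 and 29.5 CPM. The 2 libraries of each group lay close together and the groups were apart, with means of 47.9 ± 1.21 and 28.3 ± 1.66 CPM (SD, n = 2 each). The log2 fold change was -0.76 (SE 0.28), a 1.69-fold lower level. Across all alternatives it ranged from -0.98 to -0.69.

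The reads of the 3 PAR bZIP genes divided differently between the groups, a comparison within each library that needs no scaling between libraries. Hlf took 36.5% (exact 95% binomial interval 32.6 to 40.5) and 49.5% (45.5 to 53.6) of them in the DMSO libraries. After NEDD8i it took 23.8% (19.1 to 29.1) and 23.0% (18.7 to 27.9), under both DMSO libraries. Tef took 56.4% and 44.6% in DMSO against 73.5% and 71.7% after NEDD8i, higher in both NEDD8i libraries. The share of Dbp did not separate the groups beyond counting error, at 7.16% and 5.94% in DMSO against 2.68% and 5.25%, and the intervals of 5.21 to 9.55 in DMSO replicate 1 and 3.14 to 8.17 in NEDD8i replicate 2 overlapped. These intervals cover counting error only. The set was chosen by the fall of Hlf, so these shares describe the same values and are no further result. A lower share of Hlf raises the share of Tef, whose own level was lower after NEDD8i.

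Nr1d1 (ENSMUSG00000020889.12, chromosome 11, 98658758 to 98666159, minus strand), which encodes the repressor REV-ERB alpha, was on the other side of the comparison from Dbp. It had 26 and 17 counts in the DMSO libraries against 51 and 55 in the NEDD8i libraries, or 3.70 and 3.07 CPM against 6.31 and 6.59 CPM. Both NEDD8i libraries were above both DMSO libraries, though the counting intervals of DMSO replicate 1 (2.41 to 5.41 CPM) and NEDD8i replicate 1 (4.70 to 8.30 CPM) overlapped. The means were 3.38 ± 0.443 and 6.45 ± 0.193 CPM (SD, n = 2 each), with a log2 fold change of 0.92 (SE 0.45). Its exons share 263 bases with Thra, a thyroid hormone receptor gene on the opposite strand, which had 301, 377, 195 and 270 counts in the same library order.

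Nr1d2 (ENSMUSG00000021775.12, chromosome 14, 4230569 to 4265642, plus strand), encoding the paralog REV-ERB beta, was nearly even. It had 23.7 and 25.1 CPM in DMSO against 23.0 and 28.3 CPM after NEDD8i, from 139 to 236 counts per library. The NEDD8i libraries lay on both sides of the DMSO libraries, and the log2 fold change was 0.070 (SE 0.30). Its sign turned without NEDD8i replicate 2 (-0.10) and with library sizes without TMM (-0.14), a scaling that moved the median of all genes to -0.22. Nr1d1 took 13.5% (exact 95% binomial interval 8.99 to 19.1) and 10.9% (6.48 to 16.9) of the reads of the pair in DMSO. After NEDD8i it took 21.5% (16.5 to 27.3) and 18.9% (14.6 to 23.9), higher in both libraries but with intervals that overlap those of DMSO.

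Dbp and Nr1d1 are both targets of CLOCK and ARNTL, and their reads can be set against each other inside each library. Dbp made up 61.8% (exact 95% binomial interval 49.2 to 73.3) and 67.9% (53.7 to 80.1) of the Dbp and Nr1d1 reads in DMSO. It made up 13.6% (6.04 to 25.0) and 24.7% (15.3 to 36.1) after NEDD8i. The intervals of the groups did not overlap, and this holds whatever the scaling between libraries. Both genes were chosen with these values in view, so these shares are a description.

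**Figure D2:**
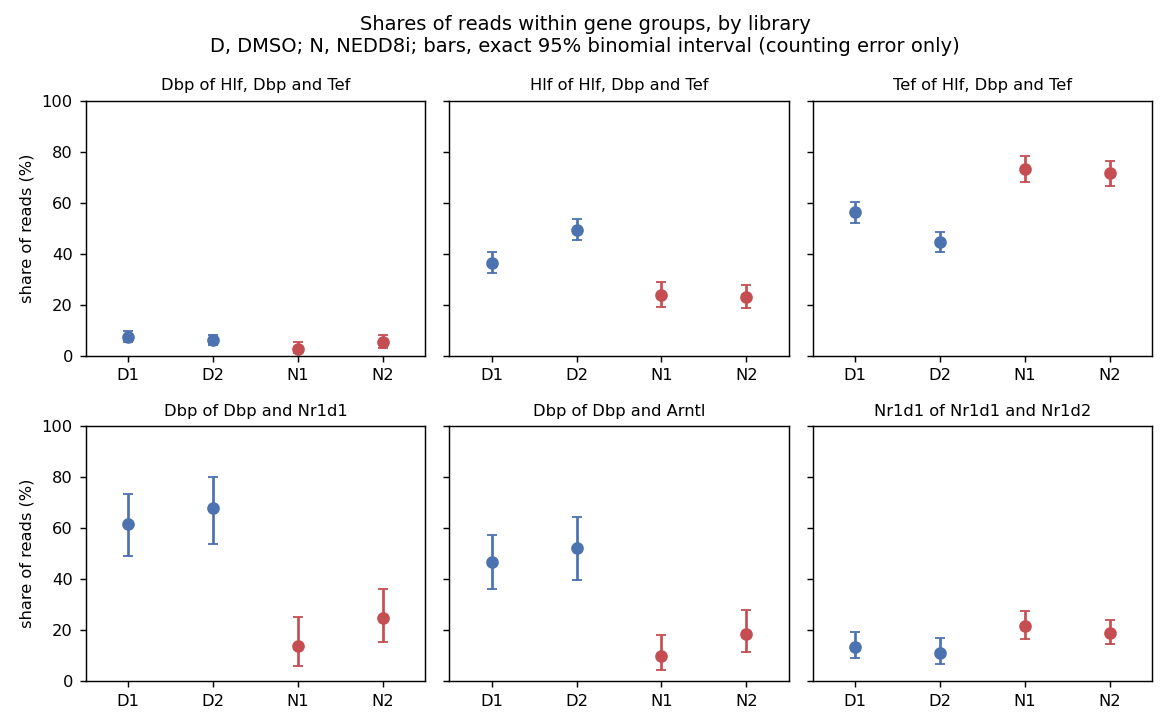
Percent of reads (vertical axis, 0 to 100) that a gene took among the reads of its named group, in each library, with exact 95% binomial intervals that cover counting error only. Hlf took under 24% of the reads of the 3 PAR bZIP genes in both NEDD8i libraries against 36.5% and 49.5% in DMSO, and Dbp took 13.6% and 24.7% of the Dbp and Nr1d1 reads against 61.8% and 67.9%.

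Arntl (ENSMUSG00000055116.9, chromosome 7, 112806672 to 112913333, plus strand) encodes the partner of CLOCK and is the best known target of REV-ERB repression. It had 48 and 33 counts in the DMSO libraries against 75 and 79 in the NEDD8i libraries, or 6.82 and 5.96 CPM against 9.29 and 9.46 CPM. The NEDD8i libraries were higher without overlap, by 0.43 on the log2 scale between the nearest libraries. The 95% counting intervals of DMSO replicate 1 (5.03 to 9.05 CPM) and NEDD8i replicate 1 (7.30 to 11.6 CPM) did overlap. The means were 6.39 ± 0.611 and 9.37 ± 0.124 CPM (SD, n = 2 each) and the log2 fold change was 0.55 (SE 0.38). Of the Dbp and Arntl reads, Dbp took 46.7% (exact 95% binomial interval 36.1 to 57.5) and 52.2% (39.8 to 64.4) in DMSO, and 9.64% (4.25 to 18.1) and 18.6% (11.4 to 27.7) after NEDD8i. Arntl and Nr1d1 were both higher where Dbp was lower.

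Clock (ENSMUSG00000029238.12, chromosome 5, 76357715 to 76452639, minus strand) did not separate the groups. It had 134 and 171 counts in the DMSO libraries against 250 and 235 in the NEDD8i libraries, or 19.0 and 30.9 CPM against 31.0 and 28.1 CPM. DMSO replicate 1 alone was low, and the other 3 libraries lay together. The log2 fold change was 0.24 (SE 0.33), and it went to -0.075 without DMSO replicate 1 and to 0.65 without DMSO replicate 2.

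Of the Period genes, which encode the PER repressors, Per1 and Per2 overlapped between the groups and Per3 lay narrowly apart. Per2 and Per3 were thinly covered. Per1 (ENSMUSG00000020893.18, chromosome 11, 68986043 to 69000786, plus strand), also an immediate-early and glucocorticoid-induced gene, had 115 and 62 counts in the DMSO libraries against 85 and 126 in the NEDD8i libraries. These are 16.3 and 11.2 CPM against 10.5 and 15.1 CPM, so each group held a high and a low library. Its log2 fold change was -0.11 (SE 0.37), and the sign turned without DMSO replicate 1 (0.19) and without NEDD8i replicate 1 (0.15). Per2 (ENSMUSG00000055866.10, chromosome 1, 91343704 to 91387046, minus strand) had 10, 14, 3 and 19 counts in the same library order. The lowest and the second highest of its levels, 0.371 and 2.28 CPM, were the NEDD8i libraries, so its fold change (-0.55, SE 0.90) rests on NEDD8i replicate 1 and was 0.23 without it and -2.36 without NEDD8i replicate 2. Per3 (ENSMUSG00000028957.13, chromosome 4, 151088109 to 151129122, minus strand) had 23 and 22 counts in the DMSO libraries against 11 and 26 in the NEDD8i libraries, or 3.27 and 3.97 CPM against 1.36 and 3.11 CPM. Both NEDD8i libraries were under both DMSO libraries, NEDD8i replicate 2 only just, and the log2 fold change of -0.69 (SE 0.61) went to -0.20 without NEDD8i replicate 1 and to -1.41 without NEDD8i replicate 2.

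Levels of other gene groups differed between the same libraries and are given beside these values. Of all genes tested, 0.667% passed the threshold as higher and 0.114% as lower. Wound keratinocyte markers (8 genes, 4 of 8 past the threshold as higher) summed to 540 and 633 CPM in DMSO and 6292 and 6609 CPM after NEDD8i. Sprr1a, a cornified envelope precursor, was the most abundant. Krt17 overlapped between the groups, at 262 and 79.3 CPM in DMSO against 222 and 183 CPM, and the other 7 were higher without overlap. Suprabasal keratinocyte markers (8 genes led by Krt10, 7 tested, 2 lower) summed to 4127 and 7122 CPM in DMSO and 3912 and 3403 CPM after NEDD8i. The sum, which Krt10 and Krt1 carry, was highest in DMSO replicate 2, as Hlf was, but the list was mixed. The genes called lower, Lor (338 and 111 CPM in DMSO against 24.6 and 29.6 CPM) and Flg2 (160 and 90.6 CPM against 6.56 and 12.8 CPM), were highest in DMSO replicate 1, and Ivl and Sbsn were highest in NEDD8i replicate 2. Basal keratinocyte markers (7 genes led by Krt14, 0 past the threshold) also summed highest in DMSO replicate 2. Their sums were 3013 and 5737 CPM in DMSO and 5115 and 4417 CPM after NEDD8i. Hair markers (12 genes led by Tchh, 0 past the threshold) and melanocyte markers (6 genes led by Dct, 3 tested, 0 past the threshold) were highest in DMSO replicate 1, the latter at 347 CPM against 42.8 to 46.7 CPM in the other libraries. Fibroblast markers (7 genes led by Dcn, 5 tested, 1 higher) summed to 55.4 and 7.04 CPM in DMSO and 36.4 and 72.7 CPM after NEDD8i. Dcn made up 49.0 CPM of the sum in DMSO replicate 1. Each of the other 4 tested, Col1a1, Col1a2, Col3a1 and Dpt, was higher in both NEDD8i libraries than in both DMSO libraries, with log2 fold changes of 2.11 to 3.29. Dpt, an extracellular matrix protein gene, was the one called, at 0.995 and 0.542 CPM against 6.93 and 8.74 CPM. The part of any of these cell populations in the values of the clock genes was not tested. Without DMSO replicate 1, Hlf stood at -2.58, Dbp at -2.04, Tef at -0.80, Nr1d1 at 1.06 and Arntl at 0.64.

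**Figure D3:**
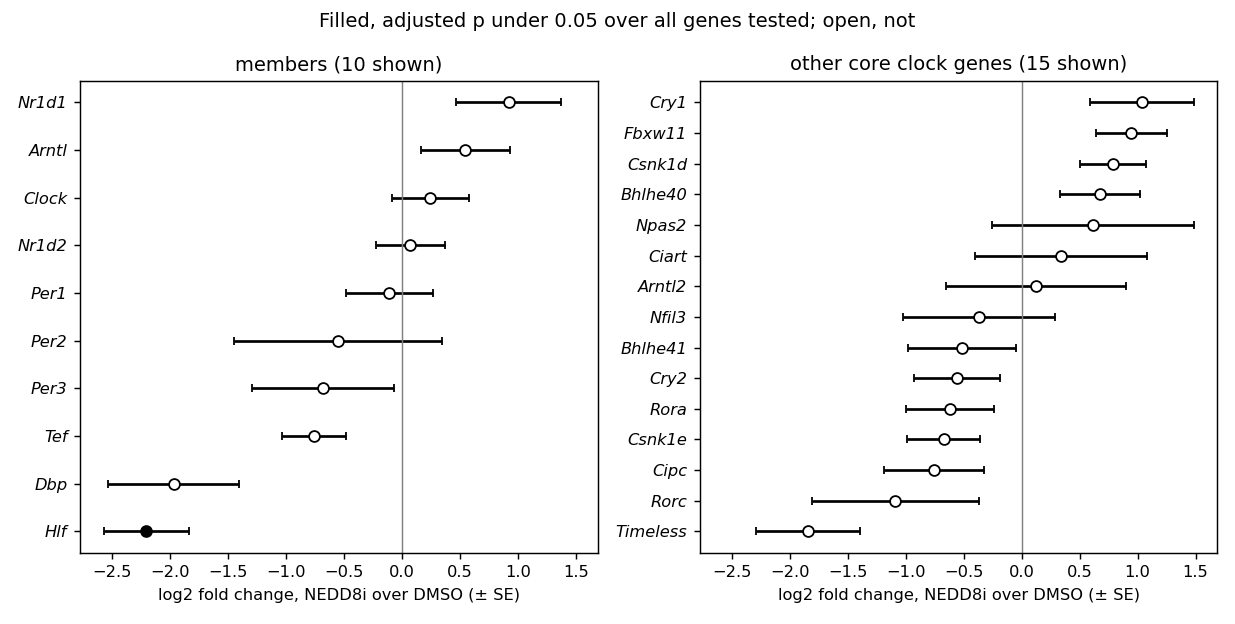
Log2 fold change of NEDD8i over DMSO with its standard error (horizontal axis) for the 10 genes (left) and for 15 of the 16 tested genes of the wider clock list (right). Hlf at -2.21 is filled because it passed over all genes tested, and Timeless at -1.85 is the lowest of the wider list, where all points are open.

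The wider clock machinery was given by a list of 19 further genes, of which 16 were tested. By edgeR 0 of the 16 passed in either direction, against 0.782% of all genes tested. At an unadjusted edgeR p under 0.05, 3 were higher and 1 lower (8.62% and 7.86% of all genes tested). DESeq2, fitted on all 19, and limma-voom also called 0. The median log2 fold change was -0.12, with 8 positive and 8 negative. Without DMSO replicate 1, Cry1 was called as higher and Rora and Timeless as lower, and without DMSO replicate 2, Csnk1e was called as lower. Those fits called 10.4% and 10.7% of all genes they tested, and 3 of 17 and 1 of 16 of the list.

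The Cryptochrome genes encode the repressors that act with PER. Cry1 had 52 and 20 counts in the DMSO libraries against 84 and 104 in the NEDD8i libraries, or 7.39 and 3.61 CPM against 10.4 and 12.5 CPM. Both NEDD8i libraries were above both DMSO libraries, and the DMSO libraries were far apart. The log2 fold change was 1.04 (SE 0.45, adjusted p = 0.292 by edgeR), and 1.65 without DMSO replicate 1. Cry2 was on the other side, at 10.4 and 11.7 CPM against 8.17 and 6.83 CPM (-0.56, SE 0.37, edgeR adjusted p = 0.509). Nfil3, whose product competes with the PAR bZIP factors for the D-box, had 10.1 and 2.35 CPM in DMSO, and the NEDD8i libraries at 6.31 and 3.47 CPM lay between them.

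Timeless, a replication fork protein with a debated role in the mammalian clock, had the lowest value of the list. Its counts were 59 and 66 in the DMSO libraries against 26 and 20 in the NEDD8i libraries, with no overlap, and its log2 fold change was -1.85 (SE 0.45, adjusted p = 0.0971 by edgeR). It was called in 3 of the 15 alternatives, among them without DMSO replicate 1. Casein kinase 1 phosphorylates PER proteins, and its genes stood on opposite sides. Csnk1d had 26.6 and 22.0 CPM in DMSO and 41.5 and 42.4 CPM after NEDD8i (0.78 on the log2 scale, SE 0.28, adjusted p = 0.217 by edgeR). Csnk1e had 55.1 and 36.1 CPM against 26.4 and 31.0 CPM (-0.67, SE 0.32, edgeR adjusted p = 0.34), and was called only without DMSO replicate 2 among the settings run, where 5.61% of all genes were called as lower.

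Fbxw11, an F-box protein of the ligase that degrades PER proteins, had 18.9 and 18.1 CPM in DMSO and 30.3 and 41.0 CPM after NEDD8i (0.95 on the log2 scale, SE 0.31, adjusted p = 0.178 by edgeR). Its paralog Btrc had 1, 10, 4 and 4 counts and was not tested. Cipc, which encodes an inhibitor of CLOCK, had 6.54 and 6.86 CPM against 3.84 and 4.07 CPM (-0.76, SE 0.43, edgeR adjusted p = 0.433). Rora, an activator that competes with REV-ERB for the RORE, had 1401, 2213, 1488 and 1717 counts. DMSO replicate 2 alone was high for it, at 400 CPM against 184 to 206 CPM in the other libraries, and the log2 fold change of -0.62 (SE 0.38, adjusted p = 0.466 by edgeR) was -0.015 without that library.

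Genes that often follow the clock in other tissues showed no called change. Of 13 such genes 9 were tested and edgeR called 0. At an unadjusted edgeR p under 0.05, 3 were higher and 0 lower (8.62% and 7.86% of all genes tested). DESeq2, fitted on all 13, and limma-voom called 0. The median log2 fold change was 0.49, with 7 positive and 2 negative. Usp2, a deubiquitinase gene and a frequent companion of Dbp in rhythmic gene sets, had 19.3 and 23.3 CPM in DMSO and 40.6 and 37.5 CPM after NEDD8i (0.87, SE 0.29, edgeR adjusted p = 0.187). It was called without DMSO replicate 2, a fit that called 5.09% of all genes as higher, and was the 1 call of the list in any fit run. Usp2 lay on the side of Nr1d1 and not of Dbp. Klf10, a zinc finger repressor, stood at 0.96 (SE 0.34), the cytochrome P450 reductase gene Por at 0.67 (SE 0.27), the tensin gene Tns2 at 1.22 (SE 0.61), and Nampt, the rate-limiting enzyme of NAD salvage, at 0.49 (SE 0.31). Coq10b, a coenzyme Q binding protein gene, was at 0.18 (SE 0.54) and turned negative without DMSO replicate 2 (-0.40), without NEDD8i replicate 2 (-0.079) and with library sizes without TMM (-0.089).

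Glucocorticoids reset skin clocks and induce Per1, so a list of 12 glucocorticoid-responsive genes was read beside it. Of 11 tested, 1 rose and 0 fell by edgeR, against 0.667% of all genes tested that passed as higher. At an unadjusted edgeR p under 0.05, 4 were higher and 0 lower (8.62% and 7.86% of all genes tested). The median log2 fold change was 0.96 with 9 positive and 2 negative. The riser was the metallothionein Mt1, a metal-binding stress protein gene, at 147 and 109 CPM in DMSO and 511 and 398 CPM after NEDD8i (1.83, SE 0.33, edgeR adjusted p = 0.0493). The call on Mt1 lay at the threshold and was lost without NEDD8i replicate 1 (adjusted p = 0.397) and without NEDD8i replicate 2 (adjusted p = 0.17), and in 8 of the 15 alternatives in all. Without DMSO replicate 1, 5 of the list were called as higher (Cebpd, Dusp1, Fkbp5, Mt1 and Mt2), and without DMSO replicate 2, 2 were (Mt1 and Zbtb16). Those fits called 5.62% and 5.09% of all genes they tested as higher. Fkbp5, a receptor chaperone and a standard glucocorticoid target, was at 6.68 and 3.25 CPM against 11.6 and 16.3 CPM (1.47, SE 0.45, edgeR adjusted p = 0.162). Dusp1, a phosphatase gene, stood at 1.01 (SE 0.37) and Mt2 at 1.20 (SE 0.47), neither past the threshold. The 2 negative genes were Klf9 and Tsc22d3. Klf9 had 78.7 and 75.7 CPM in DMSO against 37.0 and 70.4 CPM after NEDD8i (-0.52, SE 0.35). Tsc22d3 (-0.059, SE 0.32) overlapped between the groups, as did Sgk1 (0.19, SE 0.36). Per1 itself did not separate the groups.

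Hlf also served as the pattern against which a filtered set of the tested genes was ranked. The 5 genes with the smallest root mean square difference from Hlf in log2 CPM centred on each gene, over 4 libraries and among 8008 candidates, were Tnfrsf19 (0.097), Ell3 (0.118), Arhgap24 (0.152), Chst15 (0.154) and Entrep1 (0.156). Each had DMSO replicate 2 highest, DMSO replicate 1 next and both NEDD8i libraries low. Tnfrsf19, a TNF receptor family member, had 678 and 948 counts in the DMSO libraries against 268 and 256 in the NEDD8i libraries. Ell3, an elongation factor gene, had 45 and 55 against 15 and 15. Arhgap24 had 87 and 98 against 21 and 24. Chst15, a chondroitin sulfate sulfotransferase gene, had 89 and 94 against 27 and 28, and Entrep1 had 72 and 85 against 22 and 19. They were selected for likeness in these same values over only 4 libraries.

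**Figure D4:**
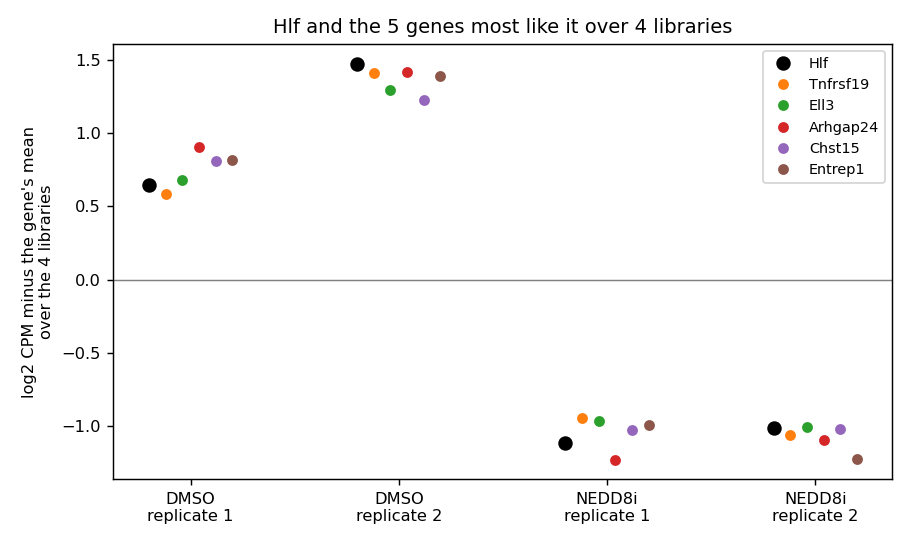
Log2 CPM minus the gene's own mean over the 4 libraries (vertical axis) for Hlf (black) and the 5 genes nearest to it. All 6 lie above 0 in both DMSO libraries, higher in DMSO replicate 2, and below 0 in both NEDD8i libraries.

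**Figure D5:**
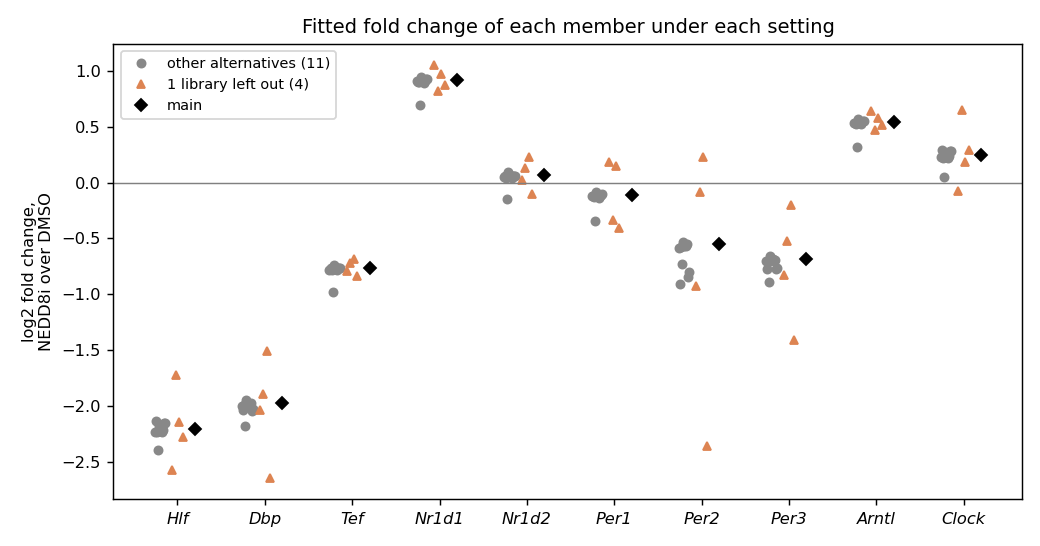
Fitted log2 fold change of each of the 10 genes (vertical axis) in the main setting (black), with 1 library left out (orange) and under the other alternatives (grey). Hlf stays between -2.58 and -1.72, Tef between -0.98 and -0.69, Nr1d1 between 0.69 and 1.06 and Arntl between 0.32 and 0.64, whereas Nr1d2, Per1, Per2 and Clock cross 0.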

How the data were processed

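The authors deposited raw read counts per gene from QuantSeq 3′ libraries, with exon coordinates, per the file headers and the labels' protocols. The submitters' processing notes name STAR, featureCounts and DESeq2 without versions, and both GRCm38 and GRCm39. Of 52029 genes matched to GENCODE M21 (GRCm38), 2.70% had the same start, and 0 of the 10 genes described, so table coordinates are taken to be GRCm39, and promoter coordinates (GRCm38.p6) were kept apart from them. Every sample column was used (0 left unused).

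Counts were fitted in R 4.3.3 with edgeR 4.0.16 on all 11388 genes that passed filterByExpr (minimum count 10, minimum total 15), with TMM factors, the group alone in the model, a robust quasi-likelihood fit, its F test, and adjustment over all genes by Benjamini-Hochberg. Log2 CPM used a prior count of 2. The standard error of an edgeR log2 fold change was taken as its absolute value divided by the square root of F. The common dispersion was 0.12 and the median standard error 0.42. A floor of 3 counts is 0.359 to 0.542 CPM, and intervals cover counting error only. The fit was tested on simulated data. Alternatives were DESeq2 1.42.0, limma-voom (limma 3.58.1), library sizes without TMM, RLE factors, all genes unfiltered, a fixed filter (10 counts and CPM above 1 in 2 libraries), no robust option, ribosomal and mitochondrial genes left out, a block for the replicate number, and omission of each library. A block with crossed numbers was added after seeing the data.

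The genes and lists were chosen with earlier results of these data known. Genes were named by rule: all 10 clock genes, and from each wider list those past the threshold, those whose groups lay at least 0.5 apart in log2 CPM, and the 2 most abundant others. The 5 genes nearest Hlf were sought among tested genes with a mean log2 CPM of at least 2. The 10 clock genes and gene models with Gm or Rik names were left out of that search. From cell type lists the gene with most counts was named. Btrc, Cry1, Cry2, Nfil3, Krt1, Krt17, Lor, Flg2, Ivl, Sbsn, Col1a1, Col1a2, Col3a1, Dpt, Cebpd, Zbtb16, Klf9, Tsc22d3, Sgk1, Adipoq, Cdh5, Sphk2 and Thra were named outside that rule, after their values were seen. The values of 1 gene of the wider clock list are not reported here, though the list's counts and median include it. Cell type lists not described above were sebaceous gland (Scd1, 0 of 7 tested past the threshold), skeletal muscle (Myh4, 0 of 6), macrophage (C1qa, 0 of 5), epidermal T cell (Thy1, 0 of 6) and adipocyte (Fabp4, 0 of 1) by edgeR, and endothelium (Kdr and Tie1, 0 tested).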

Additional observations from a re-analysis of the deposited data

How the results depend on the processing

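Of the 10 clock genes, 6 (Hlf, Dbp, Tef, Nr1d1, Per3 and Arntl) kept their direction under all 15 alternatives, and 4 did not: Clock (-0.075 without DMSO replicate 1, up to 0.65 without DMSO replicate 2), Nr1d2 (-0.10 without NEDD8i replicate 2, -0.14 with library sizes without TMM), Per1 (0.19 without DMSO replicate 1, 0.15 without NEDD8i replicate 1, down to -0.41 without NEDD8i replicate 2) and Per2 (0.23 without NEDD8i replicate 1, down to -2.36 without NEDD8i replicate 2). Of the 21 other genes followed, Coq10b alone turned (-0.089 with library sizes without TMM, -0.079 without NEDD8i replicate 2, -0.40 without DMSO replicate 2, and up to 1.28 without DMSO replicate 1). The number of the 10 called was 1, and 0 with limma-voom and without the robust option. It was 0 to 2 with a library left out. Among the other core clock genes 1 was called with no filter and 1 with the crossed replicate block, and 0 to 3 with a library left out, while clock output genes gave 0 to 1. Glucocorticoid-responsive genes gave 0 with RLE factors, with the fixed filter, with library sizes without TMM, with limma-voom, without ribosomal RNA genes and without the robust option, 3 with no filter, 2 with the replicate block and 0 to 5 with a library left out. Over all genes 89 were called, against 387 with DESeq2, 27 with limma-voom, 47 with library sizes without TMM, 703 with no filter, 48 without the robust option, 285 with the replicate block, 483 with the crossed replicate block and 44 to 1358 with a library left out. Genes fitted were 23633 with no filter and with DESeq2, and 11388 with either block and with limma-voom. Of these, 19 and 16 were other core clock genes, and 12 and 11 were glucocorticoid-responsive genes. A fit with a library left out has 1 library in a group, which is assumed to vary like the other group. The cause of these differences was not tested. Same-numbered libraries had a correlation of -0.13 between their deviations from the group means. With 2 libraries per group this cannot show whether the numbers pair the libraries. The replicate block left Hlf at -2.16 (edgeR adjusted p = 0.0165). Depth limits Per2, Per3, Dbp and Nr1d1, which had 3 to 55 counts per library.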
